A study of Mus musculus with 2 samples.

Results

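The miR-106b-25 and miR-106a-363 clusters are groups of microRNA (miRNA) genes related by descent to the miR-17-92 cluster. They were examined in miRNA-seq counts, which read the small RNA fraction, from mouse lung at embryonic day 14.5 (E14.5). Members were taken by gene name and no level entered the rule, though earlier results of these data were known when they were chosen. The miR-106b-25 cluster has 3 genes (Mir106b, Mir93 and Mir25) and the miR-106a-363 cluster has 6 (Mir106a, Mir18b, Mir20b, Mir19b-2, Mir92-2 and Mir363), so that the members were 9 of the 1973 miRNA genes listed. All 9 were found in the count tables and all 9 had at least 10 counts in both libraries, as did 320 genes in all.

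The study holds 1 group of 2 libraries, biological replicates 1 and 2, both from lung of the strain B6NCrl with no genotype or treatment named. By the labels a library came from a single lung, yet the sex is entered as pooled and both libraries carry the same donor identifier. Whether the replicates are separate animals is therefore not settled by the labels, and each SD over 2 libraries measures the spread between these libraries, which may be technical. The replicates were collected on different days, so replicate and day cannot be told apart. No contrast between conditions was therefore possible, and the comparisons are those between the clusters, between their members and between the replicates. Replicate 1 held 5128214 counts on the strand of the miRNA genes and replicate 2 held 2332032. Levels are counts per 1000000 of these (CPM), so that a single count stood for 0.195 CPM in replicate 1 and for 0.429 CPM in replicate 2. Of the miRNA lists for cell types of a lung, epithelium held 33294 and 33730 CPM in replicates 1 and 2, smooth muscle 79791 and 62023 CPM, and endothelium 76033 and 58438 CPM. A list for neural tissue (5 of 9 genes matched, 4 of them at 0) held 0.195 and 0.429 CPM, which is 1 count in each library. It holds only Mir124 and Mir9 genes, each entered at several loci, and reads that mapped to several places were given to no gene. Whether neural tissue was absent does not follow from this sum. A list for pluripotent cells (12 of 14 matched, 1 at 0) held 77.6 and 55.3 CPM.

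These clusters encode short RNAs that pair with messenger RNAs through the seed, bases 2 to 8 of the mature strand, and lower their output. Members with the same seed have overlapping targets, among them in mouse and human the cell cycle inhibitor Cdkn1a for the miR-17 seed and the cell death gene Bim (Bcl2l11) for the miR-92 seed. In mice, loss of the miR-17-92 cluster leaves the lungs underdeveloped, whereas mice without miR-106b-25 or without miR-106a-363 are viable. The miR-106b-25 cluster lies within Mcm7, which encodes a subunit of the helicase that licenses DNA replication.

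The mature sequences of the 9 members are printed because they decide both the seed family and whether a read can be assigned to 1 gene. They are RefSeq's, build GRCm38.p6, given 5′ to 3′ for the arm that carries the family seed, with the seed in capitals. The members fall into 4 seed families. In the miR-17 family, both clusters are represented:
miR-106b-5p: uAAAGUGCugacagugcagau
miR-93-5p: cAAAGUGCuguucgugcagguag
miR-106a-5p: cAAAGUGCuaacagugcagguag
miR-20b-5p: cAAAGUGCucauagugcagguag
The miR-92 family also draws on both:
miR-25-3p: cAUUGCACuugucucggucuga
miR-92a-3p: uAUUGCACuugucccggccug
miR-363-3p: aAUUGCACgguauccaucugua
The miR-18 and miR-19 families are represented in miR-106a-363 alone:
miR-18b-5p: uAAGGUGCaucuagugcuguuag
miR-19b-3p: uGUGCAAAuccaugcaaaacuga

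The miR-17-92 cluster has strands of each of these seed families, and its miR-17 and miR-18 family strands read:
miR-17-5p: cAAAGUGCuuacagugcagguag
miR-20a-5p: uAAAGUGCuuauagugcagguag
miR-18a-5p: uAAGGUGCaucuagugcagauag
Counted from the 5′ end, with the base of the miR-17-92 strand first, miR-106a-5p differs from miR-17-5p by 1 substitution, U10A. miR-20b-5p differs from miR-20a-5p by U1C and U10C, and miR-18b-5p from miR-18a-5p by A18U and A20U. miR-106b-5p, compared over 21 bases, differs from miR-17-5p by C1U, U10G and G20A, and miR-93-5p differs from miR-20a-5p by 4 substitutions. miR-25-3p differs from miR-92a-3p by 3 substitutions over 21 bases, U1C, C14U and C18U. miR-363-3p shares the seed and little else, with 11 differences from miR-92a-3p over 21 bases. None of these substitutions falls in the seed.

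The miR-106b-25 genes lie on the minus strand of chromosome 5 in mm10, within 498 bases (138165321 to 138165818). Mir106b (138165737 to 138165818) is transcribed ahead of Mir93 (138165523 to 138165610) and Mir25 (138165321 to 138165404). All 3 lie in intron 13 of the 15-exon protein-coding transcript Mcm7-201, and Mir93 and Mir25 also lie in an exon of a retained-intron transcript of Mcm7. The miR-106a-363 genes lie on the minus strand of the X chromosome within 875 bases (52741693 to 52742567). Their order of transcription is Mir106a (52742503 to 52742567), Mir18b (52742331 to 52742413), Mir20b (52742113 to 52742192), Mir19b-2 (52741983 to 52742066), Mir92-2 (52741838 to 52741928) and Mir363 (52741693 to 52741767). Only Mir106a of the 6 overlaps an annotated host, by 5 bases at the 3′ end of the noncoding gene Kis2.

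The autosomal cluster was the more abundant by an order of magnitude. The miR-106b-25 genes together held 1.85% of counts in replicate 1 (95% exact Clopper-Pearson interval 1.84 to 1.86) and 2.09% in replicate 2 (2.08 to 2.11), a mean of 1.97% ± 0.174 (SD, n = 2). The miR-106a-363 genes held 0.165% (0.162 to 0.169) and 0.203% (0.197 to 0.209), a mean of 0.184% ± 0.0264 (SD, n = 2). Within a library, the ratio of miR-106b-25 to miR-106a-363 was 11.2 (exact interval 10.9 to 11.4) in replicate 1 and 10.3 (10.02 to 10.6) in replicate 2, or 3.42 ± 0.08 on the log2 scale (SD, n = 2). The clusters thus lay far outside the spread between the replicates, with 3 genes on chromosome 5 against 6 on the X chromosome. No test over libraries is given, because an exact sign test on 2 of them has 0.5 as its smallest p. Intervals cover counting error only, since amplified reads need not be independent molecules, and how readily each sequence entered a library was not measured. In whole tissue, fewer cells of a type and less RNA per cell cannot be told apart.

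**Figure D1:**
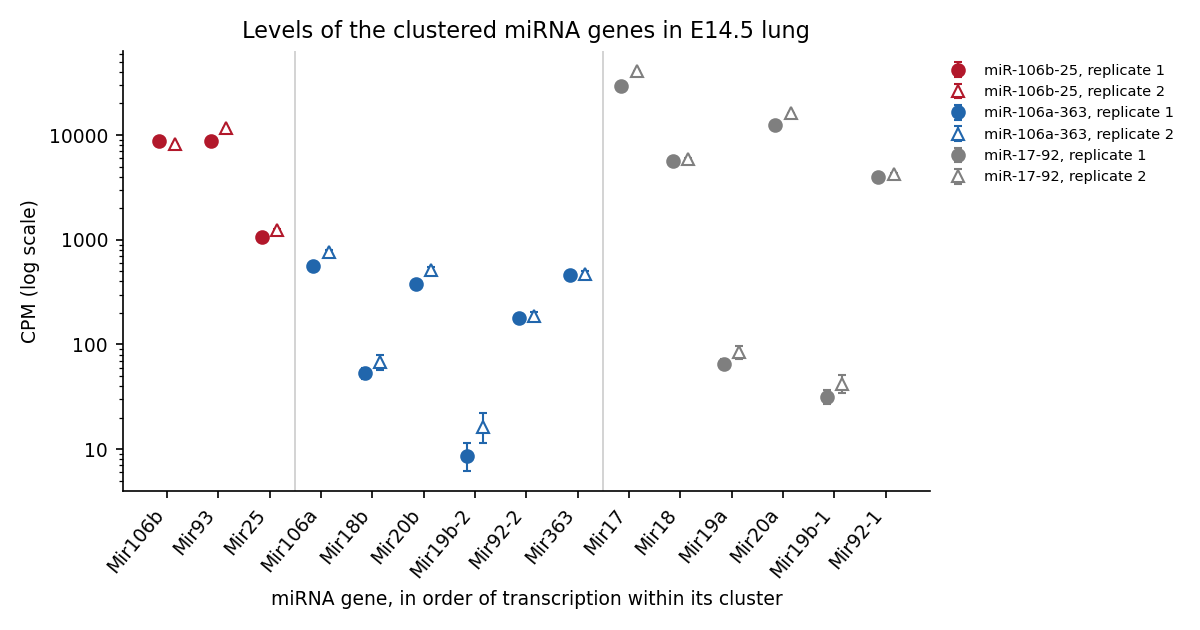
CPM (log scale) of each gene of miR-106b-25, miR-106a-363 and miR-17-92 in replicate 1 (filled circles) and replicate 2 (open triangles), with exact 95% intervals of counting error. The 3 genes of miR-106b-25 lie above all 6 of miR-106a-363 in both libraries, and the genes of the miR-19 family lie lowest in their clusters. Reads that match both Mir19b-1 and Mir19b-2, or both Mir92-1 and Mir92-2, are in no gene's counts.

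Within miR-106b-25, the miR-17 family members Mir93 and Mir106b held nearly all counts and Mir25 held little. Mir93 had 44670 counts in replicate 1 and 26976 in replicate 2, which is 8711 and 11568 CPM. Mir106b had 44563 and 18982 counts, which is 8690 and 8140 CPM. The pair was equal in replicate 1, where the ratio of Mir93 to Mir106b was 1.00 (exact interval 0.989 to 1.02), and unequal in replicate 2, where it was 1.42 (1.39 to 1.45). Their mean levels, 10139 ± 2020 CPM for Mir93 and 8415 ± 389 CPM for Mir106b (SD, n = 2), differed by less than the SD of Mir93, so their order is not settled. Mir25, of the miR-92 family, had 5486 and 2861 counts, or 1070 and 1227 CPM. Mir25 made up 5.79% and 5.86% of the cluster's counts in replicates 1 and 2, a share that did not differ beyond the counting intervals (5.64 to 5.94 and 5.65 to 6.07).

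Among all 1973 genes, Mir93 ranked 22 and Mir106b ranked 26 by mean CPM, while Mir25 ranked 96. The genes next to Mir93 in rank were Mir200c (10881 ± 969 CPM) above and Mir411 (8925 ± 2330 CPM) below. Mir106b stood between Mir744 (8616 ± 137 CPM) and Mir351 (8083 ± 1.24 CPM), and Mir25 between Mir374b (1159 ± 121 CPM) and Mir188 (1131 ± 52.6 CPM). Each of these neighbours lay within the larger SD of itself and the member beside it.

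Within miR-106a-363, levels ranged from 668 ± 144 CPM for Mir106a to 12.4 ± 5.46 CPM for Mir19b-2 (SD, n = 2). Mir106a, the X-linked near copy of Mir17, had 2906 counts in replicate 1 and 1795 in replicate 2, which is 567 and 770 CPM. Mir363, the last gene of the cluster, had 2376 and 1098 counts, which is 463 and 471 CPM. Mir20b had 1960 and 1203 counts, which is 382 and 516 CPM. Mir363 and Mir20b exchanged places between the libraries, with means of 467 ± 5.31 and 449 ± 94.5 CPM, so their order is not settled either.

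The remaining 3 genes of miR-106a-363 were lower. Mir92-2 had 926 and 436 counts, or 181 and 187 CPM. Mir18b, of the miR-18 family, had 272 and 158 counts, or 53.0 and 67.8 CPM. Mir19b-2 had 44 and 38 counts, or 8.58 and 16.3 CPM, and its exact intervals, 6.23 to 11.5 and 11.5 to 22.4 CPM, met without overlapping. Mir106a, Mir363, Mir20b, Mir92-2, Mir18b and Mir19b-2 ranked 115, 126, 129, 167, 219 and 276 among all genes. By rank the nearest genes were Mir494 (673 ± 141 CPM) and Mir320 (668 ± 112 CPM) for Mir106a, Mir672 (469 ± 30.7) and Mir339 (461 ± 7.81) for Mir363, and Mir186 (456 ± 57.2) and Mir34a (446 ± 50.7) for Mir20b. For the lower members they were Mir574 (187 ± 5.21) and Mir496a (180 ± 10.5) at Mir92-2, Mir101a (61.8 ± 5.53) and Mir505 (60.0 ± 7.92) at Mir18b, and Mir190b (13.1 ± 1.46) and Mir582 (12.4 ± 0.106) at Mir19b-2.

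Across all 9 members, each step down the order of levels held in both libraries except that between Mir363 and Mir20b. That step was 0.191 of the larger SD, the step between Mir93 and Mir106b was 0.854 of it and that between Mir106a and Mir363 was 1.40 of it. Steps between the other neighbours were 2.81 to 18.7 times the larger SD. Mir25, the lowest gene of miR-106b-25, exceeded Mir106a, the highest of miR-106a-363, by 480 CPM, or 3.34 times the larger SD. No counts fell on the strand opposite to any of the 9 genes in either library (0 counts), so the choice of strand did not touch their counts.

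**Figure D2:**
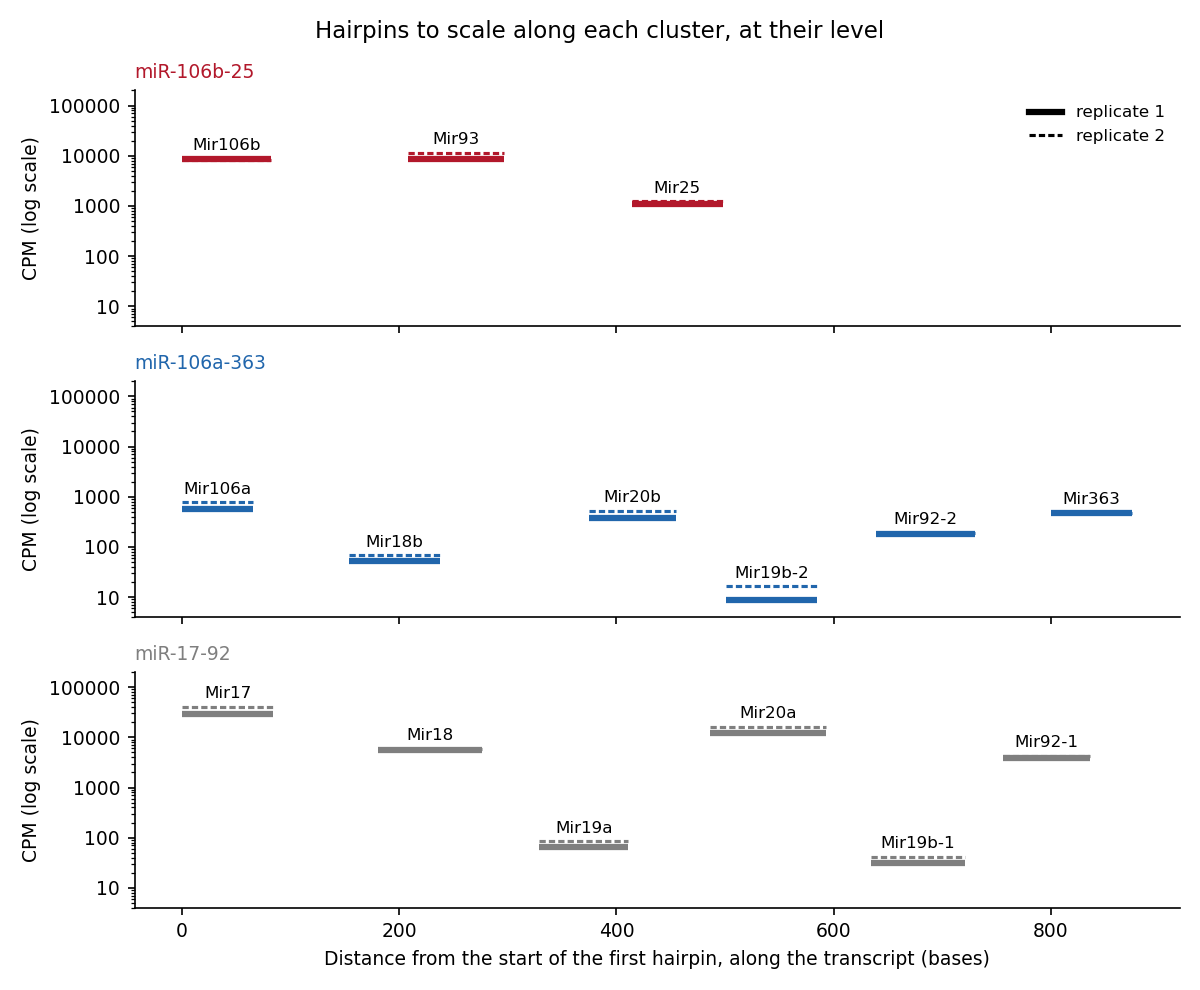
Hairpins of each cluster drawn to scale along the direction of transcription (distance in bases from the start of the first hairpin), each placed at its CPM on a log scale in replicate 1 (solid) and replicate 2 (dashed). Levels do not fall steadily along miR-106a-363, since Mir363 at the end of miR-106a-363 lies near Mir106a at its start. Mir19b-2 between them lies lowest, counted without reads that match Mir19b-1 as well.

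Mir92-2 and Mir19b-2 carry a mature strand that is identical in the miR-17-92 cluster, and reads that mapped to several places were given to no gene. Their hairpins, with those of their copies Mir92-1 and Mir19b-1, are printed to show how far the identity of the copies reaches beyond the mature strand. Capitals mark the longest run around the mature strand that the copies share:
Mir92-2: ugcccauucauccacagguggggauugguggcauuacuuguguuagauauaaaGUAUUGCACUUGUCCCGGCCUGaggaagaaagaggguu
Mir92-1: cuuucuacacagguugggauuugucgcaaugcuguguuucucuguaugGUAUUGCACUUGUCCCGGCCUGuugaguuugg
Mir19b-2: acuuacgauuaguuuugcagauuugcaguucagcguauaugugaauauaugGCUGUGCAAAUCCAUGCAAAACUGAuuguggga
Mir19b-1: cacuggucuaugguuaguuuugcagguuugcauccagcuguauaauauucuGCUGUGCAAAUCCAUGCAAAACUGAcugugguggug
The shared run is 22 bases for miR-92a-3p (21 bases mature) and 25 bases for miR-19b-3p (23 bases mature). In both pairs the copies differ from the base that follows the mature strand, so a read ending there matches both copies. The counts at these 4 genes therefore leave out reads that match both copies equally, and how far they stand for the level of the mature strands was not tested. Multimapping reads were 32.9% and 33.1% of reads in replicates 1 and 2.

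The other members have no identical copy. The nearest hairpin to miR-106a-5p carries 1 mismatch (Mir17), that to miR-18b-5p carries 2 (Mir18) and those to miR-20b-5p carry 2 (Mir106a, Mir17 and Mir20a). For miR-106b-5p, miR-93-5p and miR-25-3p the nearest carried 3 mismatches, and for miR-363-3p 8. How many mismatches the authors' alignment allowed is not given in the sources used here, and Mir17 was 51.8 and 53.0 times as abundant as Mir106a in replicates 1 and 2. What share of the Mir106a counts could be misread Mir17 was not tested.

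Paralogs of the clusters were compared within each library, which needs no scaling between libraries. The ratio of Mir106b to Mir106a was 15.3 in replicate 1 and 10.6 in replicate 2, or 3.67 ± 0.38 on the log2 scale (SD, n = 2). Mir93 exceeded Mir20b by 22.8-fold and 22.4-fold, the steadiest of the 4 pairs, at a log2 ratio of 4.50 ± 0.02. Mir25 exceeded Mir92-2 by 5.92-fold and 6.56-fold, with Mir92-2 counted without such shared reads, and Mir363 by 2.31-fold and 2.61-fold. The miR-106b-25 member was thus the higher in all 4 pairs and both libraries, by less for the miR-92 family than for the miR-17 family.

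Every gene compared with its miR-17-92 paralog had fewer counts than it in both libraries, and so did each cluster as a whole. miR-106b-25 held 0.359 of the counts of miR-17-92 in replicate 1 and 0.311 in replicate 2, and miR-106a-363 held 0.0321 and 0.0302 of them. Both clusters together had a log2 ratio to miR-17-92 of -1.45 ± 0.14 (SD, n = 2). Mir93 had 0.702 and 0.717 of the counts of Mir20a, Mir106b 0.296 and 0.199 of those of Mir17, and Mir25 0.270 and 0.288 of those of Mir92-1. On the X chromosome, Mir106a had 0.0193 and 0.0189 of the counts of Mir17, Mir20b 0.0308 and 0.0320 of those of Mir20a, and Mir18b 0.00933 and 0.0115 of those of Mir18. Mir92-2 had 0.0455 and 0.0439 of the counts of Mir92-1, and Mir19b-2 had 0.272 and 0.388 of those of Mir19b-1, pairs that share their mature strand.

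**Figure D3:**
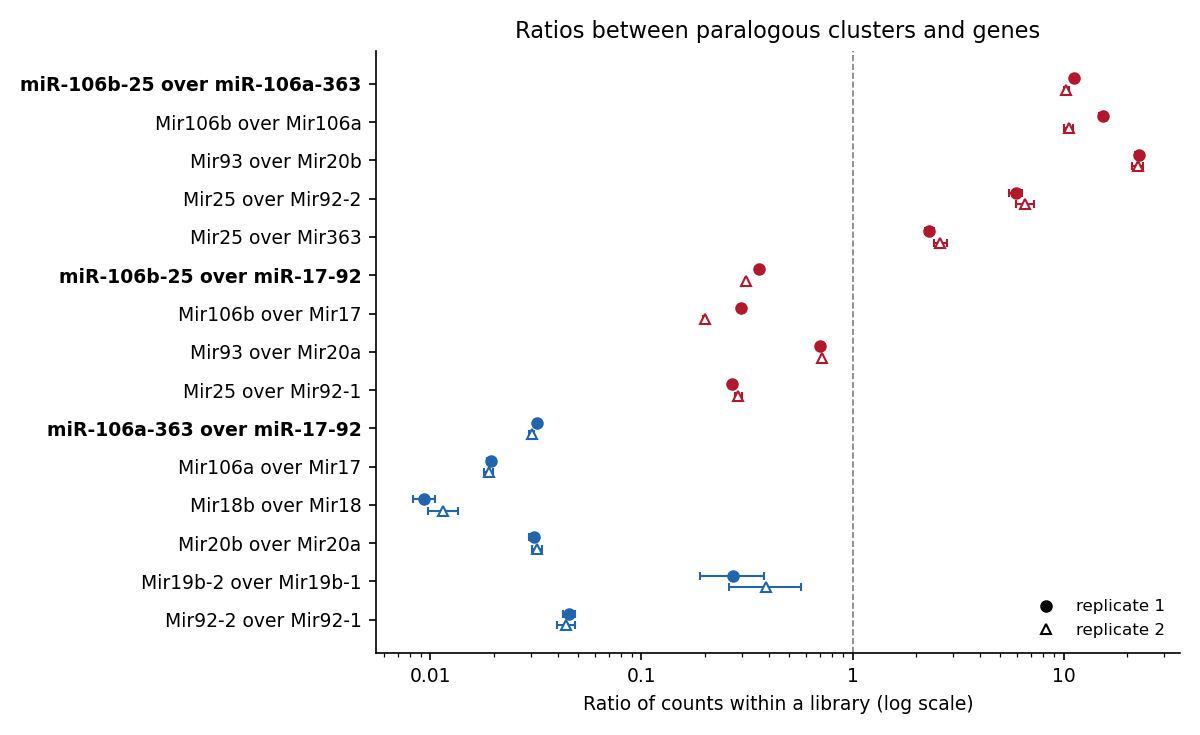
Ratios of counts within a library (log scale) between clusters (bold) and between single paralogous genes, in replicate 1 (filled circles) and replicate 2 (open triangles), with exact 95% intervals of counting error. Ratios over miR-106a-363 genes lie to the right of 1 and all ratios over miR-17-92 genes lie to the left of 1, with Mir93 over Mir20a nearest to it at 0.702 and 0.717.

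Grouping the counts by seed shows how much of each family's assigned counts came from each cluster. Reads that match both copies of miR-92a-3p or of miR-19b-3p were given to no gene. Totals and shares of the miR-92 and miR-19 families therefore leave out an unknown part. Genes with the miR-17 seed held 6.01% and 7.79% of all counts in replicates 1 and 2. Of these, 29.0% and 25.3% came from miR-106b-25 and 1.58% and 1.65% from miR-106a-363, the rest being Mir17 and Mir20a. Genes with the miR-92 seed held 0.735% and 0.769% of all counts. Mir25 supplied 14.6% and 15.9% of that family, Mir363 and Mir92-2 together 8.76% and 8.55%, and Mir92-1 54.0% and 55.4%.

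Outside the clusters the miR-92 family has Mir92b (1324 ± 53.4 CPM), Mir32 (284 ± 31.7 CPM) and Mir367, the last with 0 counts in both libraries, which allows up to 0.585 CPM in replicate 1 and 1.29 CPM in replicate 2. Mir25, at 1148 ± 111 CPM, lay below Mir92b in both libraries and by more than the larger SD. In the miR-18 family Mir18b supplied 0.924% and 1.14%, and Mir18 the rest. In the miR-19 family Mir19b-2 supplied 8.12% (exact interval 5.96 to 10.7) and 11.4% (8.20 to 15.3) of a total of 542 and 333 counts, which left the difference between the libraries within counting error. In every family it belongs to, the X-linked cluster had fewer assigned counts than the miR-17-92 genes did. Counts are per gene and pool both arms of a hairpin, so these shares are of genes and not of mature strands.

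**Figure D4:**
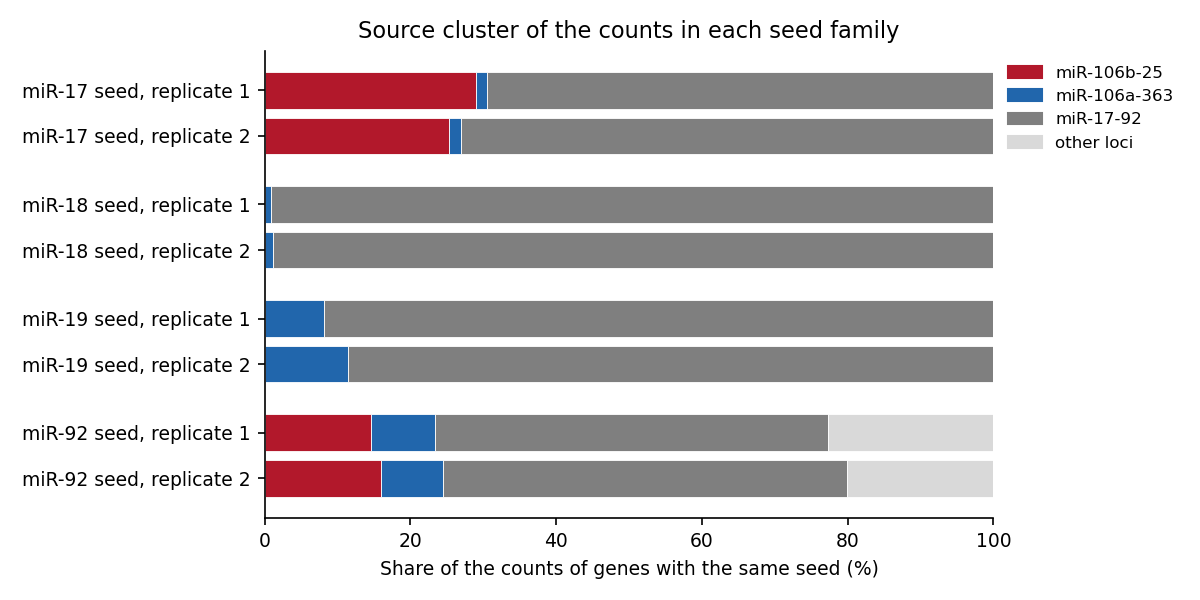
Share (%) of the counts of genes with a common seed that came from miR-106b-25, miR-106a-363, miR-17-92 or other loci, by seed family and replicate. The miR-106b-25 cluster supplied 29.0% and 25.3% of the counts of the miR-17 family and 14.6% and 15.9% of those of the miR-92 family. Reads that match both copies of miR-92a-3p or of miR-19b-3p are in no gene's counts.

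Between the replicates, members of the clusters differed in both directions beyond counting error, with Mir106b higher in replicate 1 and Mir93, Mir25, Mir106a, Mir20b and Mir19b-2 higher in replicate 2. Log2 ratios are of replicate 1 to replicate 2 after TMM scaling, a scaling by the bulk of genes, with 1 CPM added. The 404 genes that reached 10 counts in total entered an exact binomial test (two-sided), with Benjamini-Hochberg adjustment over all of them and a threshold of 0.05. Such a test compares the reads of 2 libraries and not conditions. By this test 163 genes (40.3%) differed, 83 of them (20.5%) higher in replicate 1 and 80 (19.8%) higher in replicate 2. Of the 9 members 6 differed, 1 higher in replicate 1 and 5 higher in replicate 2. Among genes of at least 100 CPM the test called 136 of 187 (72.7%), and among such members 5 of 7. The median log2 ratio was -0.28 over the members and 0.01 over all genes tested. With library totals in place of TMM the calls over all genes were 65 higher in replicate 1 and 112 higher in replicate 2.

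Within miR-106b-25 the genes, which lie in the same intron, differed in direction. Mir106b was higher in replicate 1 by 0.16 on the log2 scale (exact binomial adjusted p = 1.89e-38). Mir93 was higher in replicate 2, at -0.34 (exact binomial adjusted p = 7.63e-200), and so was Mir25, at -0.13 (exact binomial adjusted p = 0.000413). Within miR-106a-363, Mir106a (-0.37), Mir20b (-0.36) and Mir19b-2 (-0.79) were higher in replicate 2, with exact binomial adjusted p of 1.22e-16, 6.01e-11 and 0.0237. Mir18b, at -0.28, did not pass (exact binomial adjusted p = 0.107) but passed with library totals (-0.35, adjusted p = 0.0397 by the same exact test). Mir92-2 (0.02) and Mir363 (0.05) did not pass and had the opposite sign with library totals (-0.050 and -0.023).

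Counting error alone leaves out the spread between libraries, and the only estimate of that spread comes from the same 2 libraries and takes in the differences it is set against. With that common dispersion added (0.0327, a coefficient of variation of 18.1%), 1 of 404 genes (0.248%) passed and 0 of the 9 members did, each at an adjusted p of 1 in that exact test, and none (0) had an unadjusted p under 0.05. Over all genes 15 had one, and nothing about the stability of the members follows from these values. The gene that passed was Mir208a, a heart muscle miRNA, with 1533 counts in replicate 1 and 27 in replicate 2. The lists of smooth muscle and endothelial miRNAs summed to 79791 and 76033 CPM in replicate 1, against 62023 and 58438 CPM in replicate 2. Both genes of the smooth muscle list and 1 gene of 2 for endothelium were matched. Of the smooth muscle genes, Mir143 had a log2 ratio of replicate 1 to replicate 2 of 0.44 and Mir145a of 0.01, so the difference in that sum is of Mir143. The striated muscle list, with 9 of 10 genes matched and 2 of them at 0, held 370 CPM in replicate 1 against 57.5 CPM in replicate 2. That sum includes the 1533 and 27 counts of Mir208a. In this list 4 genes had at least 10 counts in both libraries. Of these, Mir208a, Mir208b (log2 ratio 0.997) and Mir499 (1.30) were higher in replicate 1, and Mir206 (-0.88) was higher in replicate 2. The blood list, with 7 of 9 genes matched and 1 at 0, held 1197 and 1066 CPM. The part of cell composition in the ratios of the members was not tested.

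**Figure D5:**
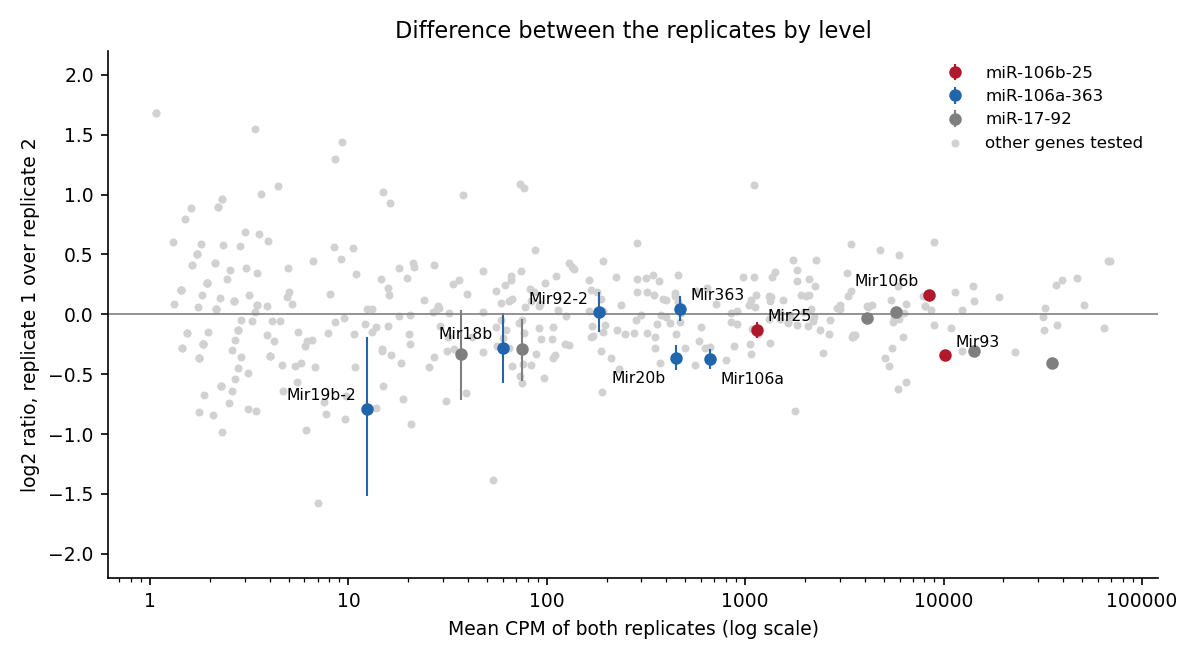
Log2 ratio of replicate 1 to replicate 2 (TMM-scaled CPM plus 1) against mean CPM (log scale) for 404 genes, with exact 95% intervals of counting error for the clustered genes and 1 other gene outside the plotted range. The labelled members lie among the other genes of their level, between -0.79 for Mir19b-2 and 0.16 for Mir106b, and Mir92-2 and Mir363 near 0 change sign with library totals.

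Ordered by sequence rather than by cluster, the ratios fell together in part. Of the 6 tested genes with the miR-17 seed, 5 had log2 ratios from -0.41 to -0.31. These were Mir106a, Mir20b and Mir93 of the members beside Mir17 (-0.41) and Mir20a (-0.31), which lie on chromosomes X, 5 and 14. The mature strand of Mir106a differs from that of Mir17 by 1 base. Whether its ratio repeats that of Mir17 through misread counts was not tested. Over all genes tested, 201 of 404 had a negative ratio and the median absolute log2 ratio was 0.24, so single ratios of this size are common. Mir106b, with the same seed, was the exception at 0.16. The 6 tested genes with the miR-92 seed lay between -0.13 (Mir25) and 0.30 (Mir32). The miR-18 seed was split between Mir18b (-0.28) and Mir18 (0.02, of the opposite sign with library totals at -0.049), and the 3 genes with the miR-19 seed lay between -0.79 (Mir19b-2) and -0.29 (Mir19a). This ordering was made after the values were seen and was not tested.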

How the data were processed

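The authors deposited raw counts for each library, 3 columns a gene, which the values show to be unstranded, gene-strand and opposite-strand reads. Per the file headers the genome was mm10 and the annotation GENCODE M4. No source used here names an aligner or counter, or how adapters and mismatches were handled. Gene-strand counts were used, and CPM were taken over all gene rows. The 4 summary entries stayed out of totals and tests. In replicates 1 and 2 they came to 12.7% and 11.7% of reads for unmapped, 32.9% and 33.1% for multimapping, 2.63% and 2.44% for no feature and 0% for ambiguous. Of 1973 identifiers, 1894 matched GENCODE M21, which gave symbols and coordinates, and the others held 1 gene-strand count. Sequences are RefSeq's (GRCm38.p6), found for all 9 members.

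Members and lists were chosen with earlier results of these data known. Genes named are the members, miR-17-92 and each member's neighbours in rank of mean CPM. Genes with a member's seed and at least 10 counts in both libraries were also named. The most abundant gene, Mir143, also in the rule, served as an alternative denominator and was named with the smooth muscle list. Mir145a, Mir206, Mir208a, Mir208b, Mir367, Mir499 and the Mir124 and Mir9 genes fall outside this rule and were named after their values were seen. The ordering of ratios by sequence was also made after the values were seen. Replicates are described by mean ± SD, which here measures the spread between 2 libraries. TMM factors and the common dispersion came from edgeR 4.0.16, alternative size factors from DESeq2 1.42.0, in R 4.3.3, and the exact tests from SciPy 1.17.1 under Python 3.11.15. The test with dispersion used a beta-binomial distribution. The tests were checked on simulated counts with known library sizes and dispersion, so the estimates of scaling and dispersion were not checked. Depth was 5128214 and 2332032 counts. No column of per-sample values lacked a sample (0 columns).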

Additional observations from a re-analysis of the deposited data

How the results depend on the processing

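The log2 ratios between the clusters kept their sign under the alternatives tried, and their sizes moved with how members were combined. With multimapping and other mapped unassigned reads in the denominator, the share of miR-106b-25 was 1.14% and that of miR-106a-363 was 0.107%. Without its most abundant member each was 0.956% and 0.117%. The log2 ratio of miR-106b-25 to miR-106a-363, 3.42 as reported, was 4.80 with geometric means of the members, 3.03 without the most abundant member of each cluster and 3.59 over members with no mature sequence of another gene. The log2 ratio of both clusters to miR-17-92, -1.45 as reported, was -1.84 with geometric means and -1.17 without the most abundant member of each cluster. Why the sizes moved was not tested. The count of genes called between the replicates, 163 as reported, was 1 with the common dispersion added, and the ratios of Mir92-2 (-0.050), Mir363 (-0.023) and Mir18 (-0.049) changed sign with library totals. Of the replicate ratios of single genes under other settings, 101 kept direction and call, 8 lost their call (all with the dispersion added), 8 gained one and these 3 changed sign. Of the members' mean CPM, 31 stayed within the replicate SD and 5 moved by more. The column without regard to strand left the shares within 1 SD of the replicates, as did a denominator without the most abundant gene. That column could not change the cluster ratios, because these genes had 0 counts on the opposite strand. It could move the paralog ratios only through the pseudocount. Other pseudocounts left the paralog ratios within 1 SD of the replicates. Leaving out either replicate gives the values of the other, which stand in the report. No paired analysis was possible because there is 1 group. Mir19b-2 had the fewest counts of the members, 44 and 38, and reads that match Mir19b-1 equally well are not among them.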

Other observations

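The 5 genes of the miR-17 seed that were higher in replicate 2 also share the last 8 bases of their mature strand, which end in GCAGGUAG, whereas that of Mir106b does not. Of 1738 mature entries in the RefSeq table, 6 (0.345%) end in these letters, and the genes of those entries that were tested were Mir106a, Mir17, Mir20a, Mir20b and Mir93, with log2 ratios of replicate 1 to replicate 2 from -0.41 to -0.31. These letters were taken from these same genes, which are paralogs, after the ratios had been seen. The match and the rarity of the letters are therefore a description without a test.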
